A study of Mus musculus with 4 samples.

Results

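The immediate early response genes Egr1, Fos, Jun, Junb, Myc, Atf3, Ier2, Ier3, Btg2 and Klf10 were followed in mouse liver by time of day and by the presence of the adrenal glands. They were taken as all probe sets whose single gene symbol in the platform annotation is one of these names, which gave 16 probe sets for the 10 genes, among 12422 probe sets and 8251 named genes on the array. Liver RNA (total RNA) of male C57BL/6 mice had been hybridised to 4 Affymetrix MG_U74Av2 GeneChips, 1 for each group. The groups were ADX (both adrenal glands removed from the dorsal side under ketamine and xylazine, then standard chow and saline to drink) at zeitgeber time (ZT, hours after lights on) 14, ADX at ZT2, sham (sham-operated, standard chow and water) at ZT14, and sham at ZT2. The ADX and sham mice therefore also differed in what they drank, and the number of animals whose RNA went onto each array is not given in the labels. The design asks which differences between ZT14 and ZT2 are seen with and without the adrenal glands, and what their loss does at each time.

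Immediate early genes are transcribed within minutes of a growth factor, hormone or stress signal, from factors already present in the cell, and most encode short-lived regulators of the genes that follow. The usual route runs from a receptor through Ras and mitogen-activated protein kinases to the serum response factor and its partners, or through cyclic AMP to CREB. In liver they are known above all from regeneration after loss of tissue, from feeding and from stress, and they are low in the resting organ. Among those measured here, Egr1 is a zinc finger transcription factor, Fos, Jun and Junb are subunits of the AP-1 dimer, Atf3 is a stress-induced factor of the ATF/CREB family, and Myc drives growth genes as a dimer with Max. Klf10 is a Krüppel-like zinc finger factor induced by transforming growth factor beta, Ier2 is a growth factor-inducible nuclear protein, Ier3 acts on cell survival, and Btg2 restrains proliferation and binds the deadenylase complex of messenger RNA decay.

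Each array gave a Signal (an intensity) per probe set and a detection call of Present, Marginal or Absent. Signals were scaled to a common trimmed mean, and all signals below are scaled. Values under a floor of 3.91 units were set to it before log2 was taken. A probe set was called different in a pair of arrays where its brighter array was Present and exceeded the other by 2-fold or more. With 1 array per group this rule of size has no replicate check and no p-value. A fold against an array without a Present call is written as at least that size. The spread of log2 differences among the probe sets that both arrays of a pair detected serves as the scale of variation. It is given as a robust SD (a scaled median absolute deviation) and does not cover probe sets that were not Present on both arrays. It was 0.47 for signals under 20 in the sham day-night pair and 0.23 for signals of 200 or more, so dim probe sets carry the larger error.

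Most of the genes were dim in liver. Of the 16 probe sets, 7 were Present on at least 1 array, for 6 genes (Egr1, Fos, Myc, Atf3, Ier2 and Klf10), and 3 were Present on all 4 arrays, the Ier2 probe set and both of Klf10. Jun, Junb, Ier3 and Btg2 had no Present call. Over all probe sets and arrays, 21 of 64 calls were Present. By array, the number of member probe sets Present was 4 in ADX at ZT14, 6 in ADX at ZT2, 5 in sham at ZT14 and 6 in sham at ZT2, on arrays where 44.4% to 47.0% of all probe sets were Present. The plot of signals shows the split in detection between the 3 probe sets that are Present throughout and the others, not all of which are near the floor.

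**Figure D1:**
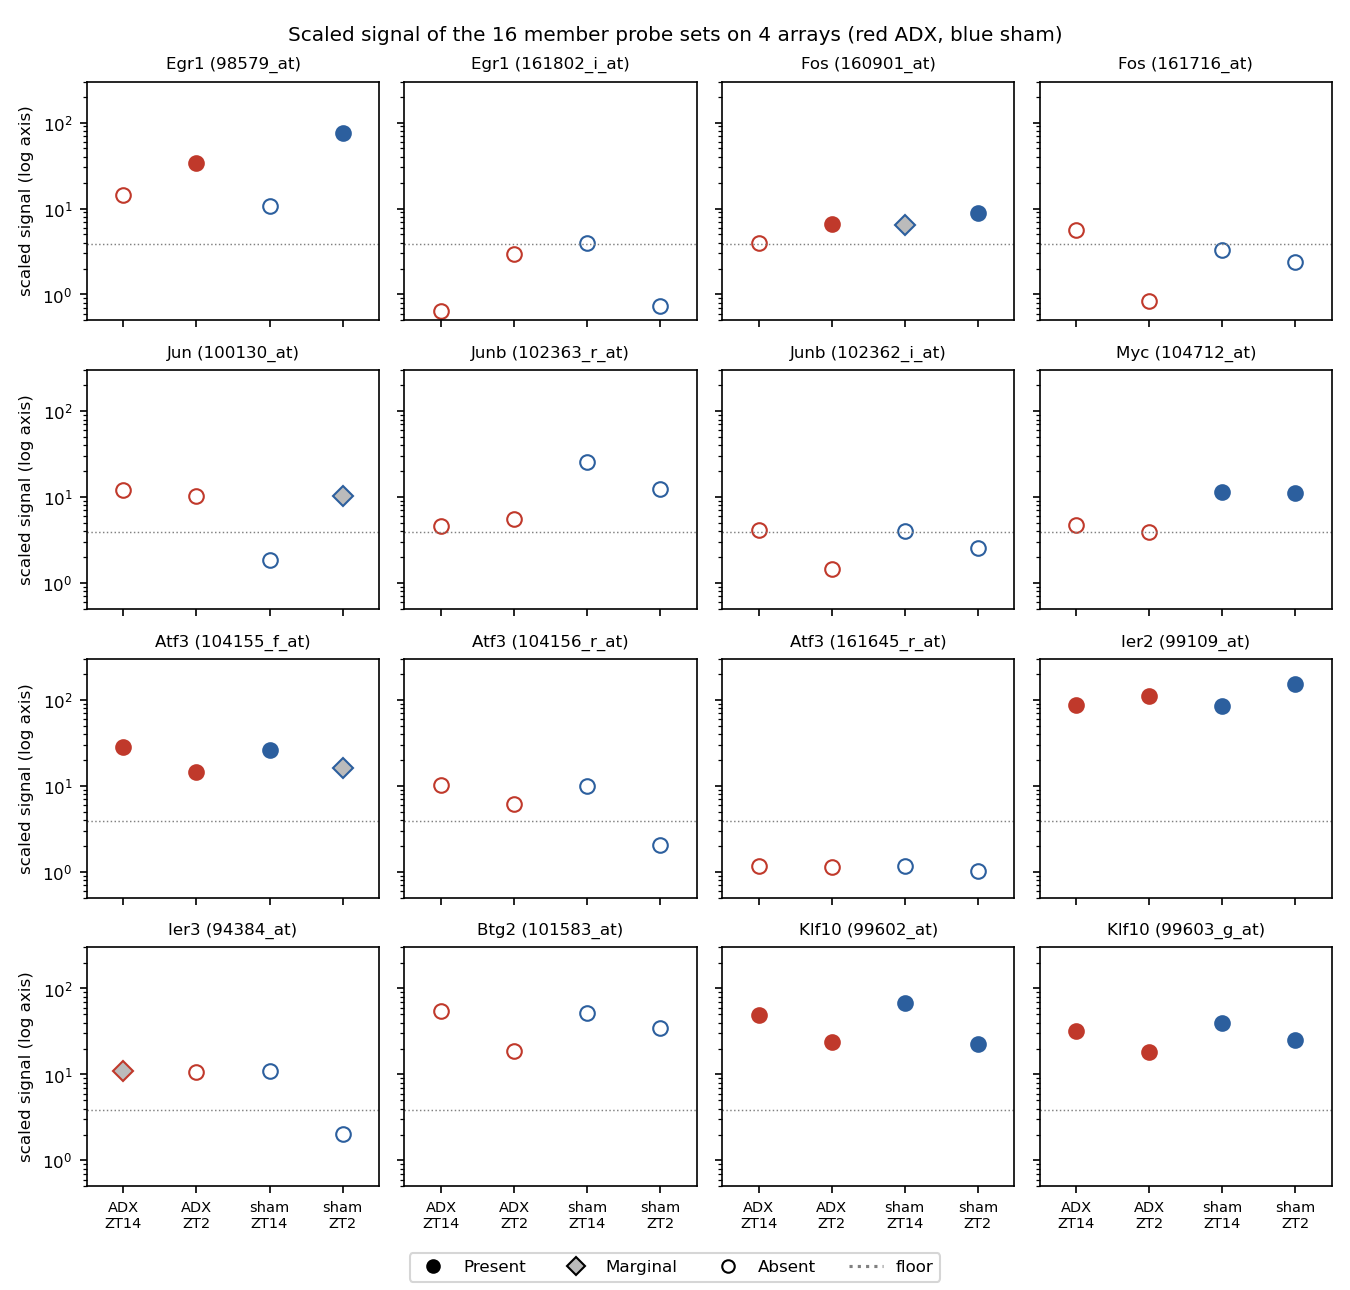
Scaled signal (log axis) of the 16 member probe sets on the ADX ZT14, ADX ZT2, sham ZT14 and sham ZT2 arrays, 1 point per array, with filled circles for Present, grey diamonds for Marginal and open circles for Absent calls and a dotted line at the floor of 3.91 units. Ier2 and Klf10 were Present on every array, Egr1 was Present on the ZT2 arrays alone, and Myc was Present on the sham arrays alone.

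Egr1, Ier2 and Fos had their higher signals at ZT2, and Klf10 and Atf3 had theirs at ZT14, in the ADX pair as in the sham pair. By the size rule Egr1 was lower and Klf10 higher at ZT14 in both pairs, and the other members were not called. Of the 6 member probe sets Present on either array of the ADX pair, 1 was higher and 1 lower, where the rule called 2.89% of all probe sets Present on either array higher and 2.45% lower. Of 7 in the sham pair, 1 was higher and 1 lower, where it called 3.42% higher and 2.53% lower. With so few probe sets these counts do not set the genes apart from the array, and the values of the single genes follow. As each array is whole liver, fewer cells of a type and less RNA per cell cannot be told apart in any of them.

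The signal of Egr1 (98579_at) was 14.3 in ADX at ZT14 and 34.2 in ADX at ZT2, against 10.7 in sham at ZT14 and 76.3 in sham at ZT2. It was Present on both ZT2 arrays and Absent on both ZT14 arrays, so the highest signal was that of sham at ZT2 and the next that of ADX at ZT2. At ZT14 it was at least 2.39-fold lower in the ADX pair (log2 -1.26) and at least 7.17-fold lower in the sham pair (log2 -2.84). The robust SD at signals of 20 to 60 covers probe sets Present on both arrays, so it gives no scale for these 2 differences. The order of the ZT14 arrays is not settled, since both were Absent and differed by a log2 of only 0.43. With the floor at 23.9 units, the 95th percentile of Absent signals, the ADX difference was -0.52 and no longer called, and the sham difference was -1.68. The other probe set of Egr1 (161802_i_at) was Absent on every array, with signals of at most 4.01, and carries no comparison.

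Ier2 (99109_at) was detected on each array with a deposited detection p-value of 0.000219. Its signal was 86.5 in ADX at ZT14 and 111 in ADX at ZT2, against 84.2 in sham at ZT14 and 154 in sham at ZT2. The order matched that of Egr1 at ZT2, with sham above ADX, and the ZT14 arrays lay together. Its log2 difference at ZT14 was -0.37 in the ADX pair and -0.87 (1.83-fold) in the sham pair, both short of 2-fold. Those are 1.16 and 2.67 robust SDs at signals of 60 to 200.

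Fos (160901_at) was close to the limit of detection throughout. Its signal was 3.95 in ADX at ZT14 and 6.67 in ADX at ZT2, against 6.45 in sham at ZT14 and 8.79 in sham at ZT2. It was Present on both ZT2 arrays, Absent in ADX at ZT14 and Marginal in sham at ZT14. The log2 differences of -0.76 in the ADX pair and -0.45 in the sham pair were both short of 2-fold. The robust SD does not cover them, as neither ZT14 array was Present. The other Fos probe set (161716_at) was Absent on every array, at 5.66 or lower. Over the whole array 158 probe sets had the same pattern of detection as Egr1 and Fos, Present on both ZT2 arrays and not on either ZT14 array, or 2.4% of the 6583 Present on any array, against 54 with the opposite pattern.

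Klf10 ran the other way. Its brighter probe set (99602_at) gave 49.2 units in ADX at ZT14 and 23.9 in ADX at ZT2, against 67.7 in sham at ZT14 and 22.6 in sham at ZT2. Both ZT14 arrays were above both ZT2 arrays, and all were Present. At ZT14 its signal was up 2.06-fold in the ADX pair (log2 1.04) and 3.0-fold in the sham pair (log2 1.58), which are 2.68 and 3.9 robust SDs. The other probe set (99603_g_at), designed on the same sequence record, gave 31.8 units in ADX at ZT14 and 18.4 in ADX at ZT2, against 39.7 in sham at ZT14 and 25.4 in sham at ZT2. Its ZT14 arrays were again the higher ones, but its log2 differences of 0.79 in the ADX pair and 0.65 in the sham pair were under 2-fold. Of the 6583 probe sets Present on any array, 41 (0.623%) were called higher at ZT14 in both pairs, Klf10 (99602_at) among them. Called lower in both were 38 (0.577%), with Egr1, which entered that count through its ZT2 arrays alone. The other Klf10 probe set was called in neither pair.

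Atf3 (104155_f_at) gave 28.2 units in ADX at ZT14 and 14.4 in ADX at ZT2, against 26.3 in sham at ZT14 and 16.01 in sham at ZT2. The ZT14 arrays were the higher ones with either operation, and the sham ZT2 array had a Marginal call. The log2 difference of 0.97 (1.96-fold) in the ADX pair was just short of 2-fold, and that of 0.72 (at least 1.64-fold) in the sham pair was also under it. The suffix f marks a design that may also bind related sequences. The other Atf3 probe sets, 104156_r_at and 161645_r_at, were Absent on every array.

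**Figure D2:**
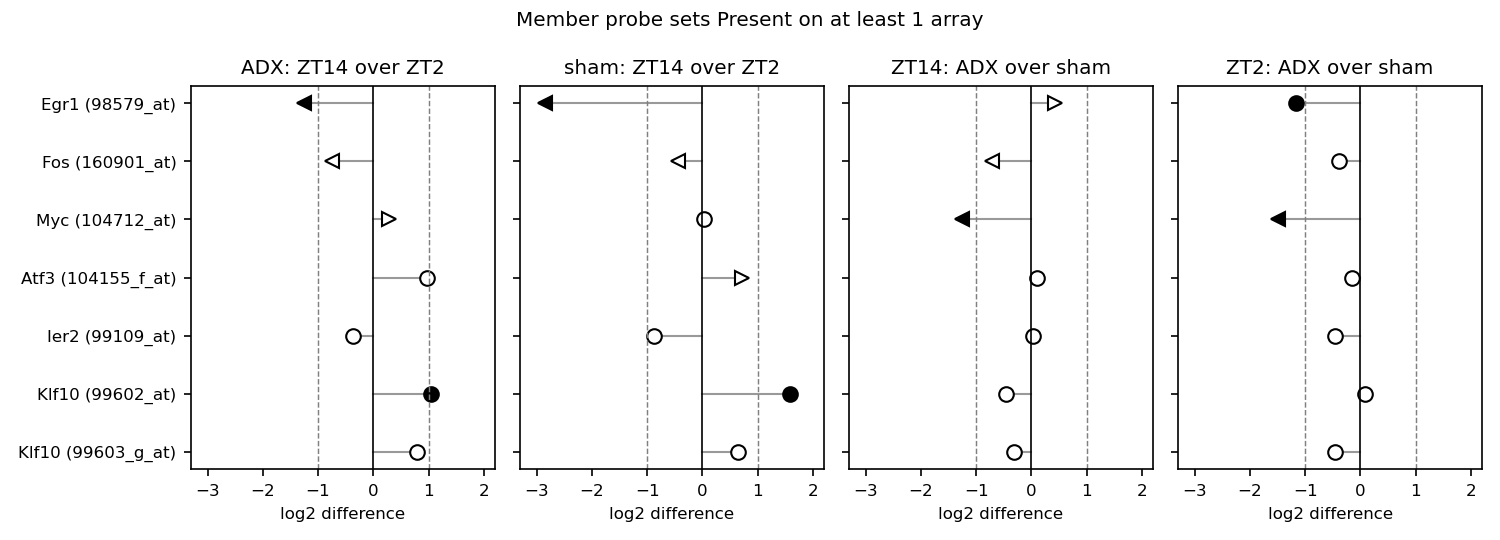
Log2 difference of each of the 7 member probe sets Present on at least 1 array, in the ADX pair and the sham pair (ZT14 over ZT2) and at ZT14 and ZT2 (ADX over sham). Filled marks passed the size rule, triangles are lower bounds on the size because the dimmer array was not Present, and dashed lines mark 2-fold. Egr1 points left and Klf10 right in both pairs, while Myc passes 2-fold in the comparisons of operation alone.

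For Ier2 and Klf10, Present on all arrays, the day-night differences of the pairs can be set side by side. The ADX difference minus the sham difference was 0.50 for Ier2, -0.54 for Klf10 (99602_at) and 0.14 for its other probe set. The Ier2 difference and that of the brighter Klf10 probe set were thus smaller in size in the ADX pair, and that of the other Klf10 probe set was not. With 1 array per group these contrasts could not be tested. For Egr1 the differences of both pairs are lower bounds and have no order. No member was called in opposite directions in the 2 pairs.

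**Figure D3:**
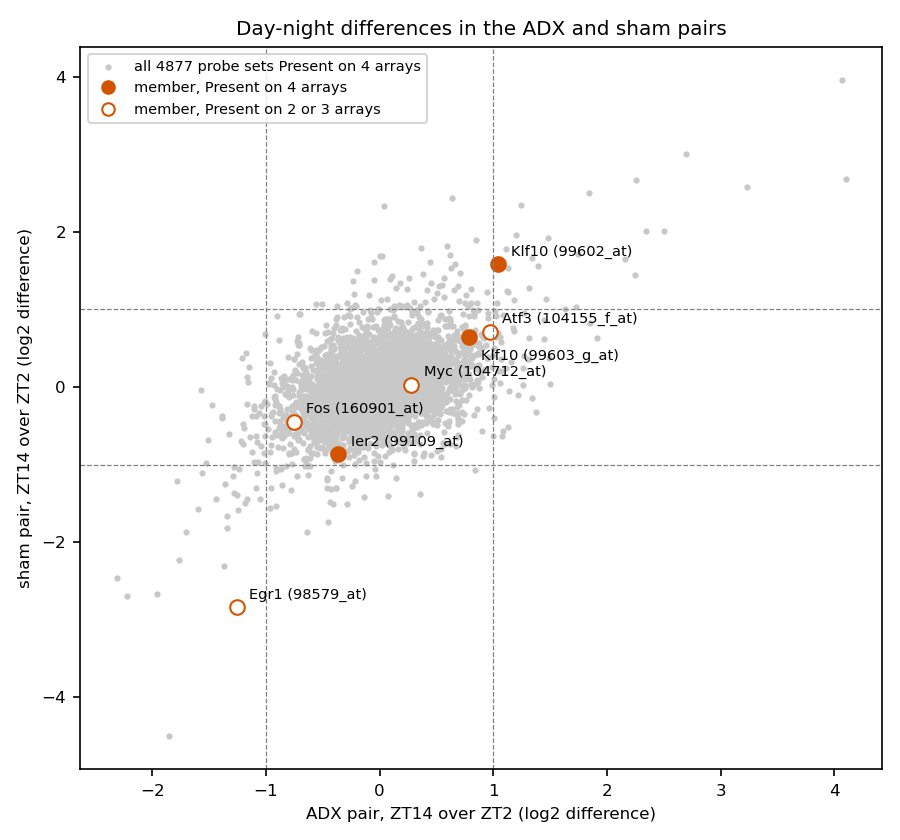
Log2 difference of ZT14 over ZT2 in the ADX pair (x axis) and the sham pair (y axis), with grey points for the 4877 probe sets Present on all 4 arrays, filled orange points for members Present on all 4 and open ones for members Present on 2 or 3 arrays; dashed lines mark 2-fold. Egr1 (-1.26, -2.84) lies far below 0 on both axes and Klf10 99602_at (1.04, 1.58) above 0 on both.

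Between operations, Myc was lower in ADX at both times, and Egr1 was lower in ADX at ZT2. Of the 5 member probe sets Present on either array at ZT14, 0 were higher and 1 was lower, where the rule called 2.45% of probe sets higher in ADX and 1.62% lower. Of 7 at ZT2, 0 were higher and 2 were lower, where it called 1.73% higher and 0.832% lower.

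Myc (104712_at) gave 4.8 units in ADX at ZT14 and 3.96 in ADX at ZT2, against 11.4 in sham at ZT14 and 11.2 in sham at ZT2. Both sham arrays were Present and both ADX arrays Absent, and the time of day made little difference within either operation. In ADX it was at least 2.38-fold lower at ZT14 (log2 -1.25) and at least 2.83-fold lower at ZT2. The robust SD covers probe sets Present on both arrays, so it gives no scale for these Myc differences. Of the 6583 probe sets Present on any array, 3 (0.0456%) were called lower in ADX at both times, Myc among them. Called higher at both were 13 (0.197%). Myc entered this count through the sham arrays alone, where it is high, so the count is no support for its difference. The pattern of detection alone, Present on both sham arrays and on neither ADX array, was found for 95 probe sets (1.44%). The opposite pattern was found for 69 (1.05%). The ADX signals lie close to the floor of 3.91, and doubling the floor reduced the log2 differences to -0.55 at ZT14 and -0.52 at ZT2, neither called.

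At ZT2 Egr1 was 2.23-fold lower in ADX than in sham (34.2 against 76.3, log2 -1.16), with both arrays Present, and this difference was 3.64 robust SDs. It ranked 44 of the 52 probe sets called lower. At the same time Ier2 had a log2 difference of -0.47 in ADX, 2.15 robust SDs, and Fos one of -0.40, both short of 2-fold. At ZT14 the log2 differences were 0.43 for Egr1, both arrays Absent, and 0.04 for Ier2. The sham ZT2 array enters both this comparison and the sham day-night pair, so for Egr1 and Ier2 those comparisons are not independent of each other. Klf10 differed little between operations, with log2 differences of -0.46 (99602_at) and -0.32 (99603_g_at) at ZT14 and 0.08 and -0.46 at ZT2. Atf3 differed by 0.10 at ZT14 and -0.15 at ZT2.

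**Figure D4:**
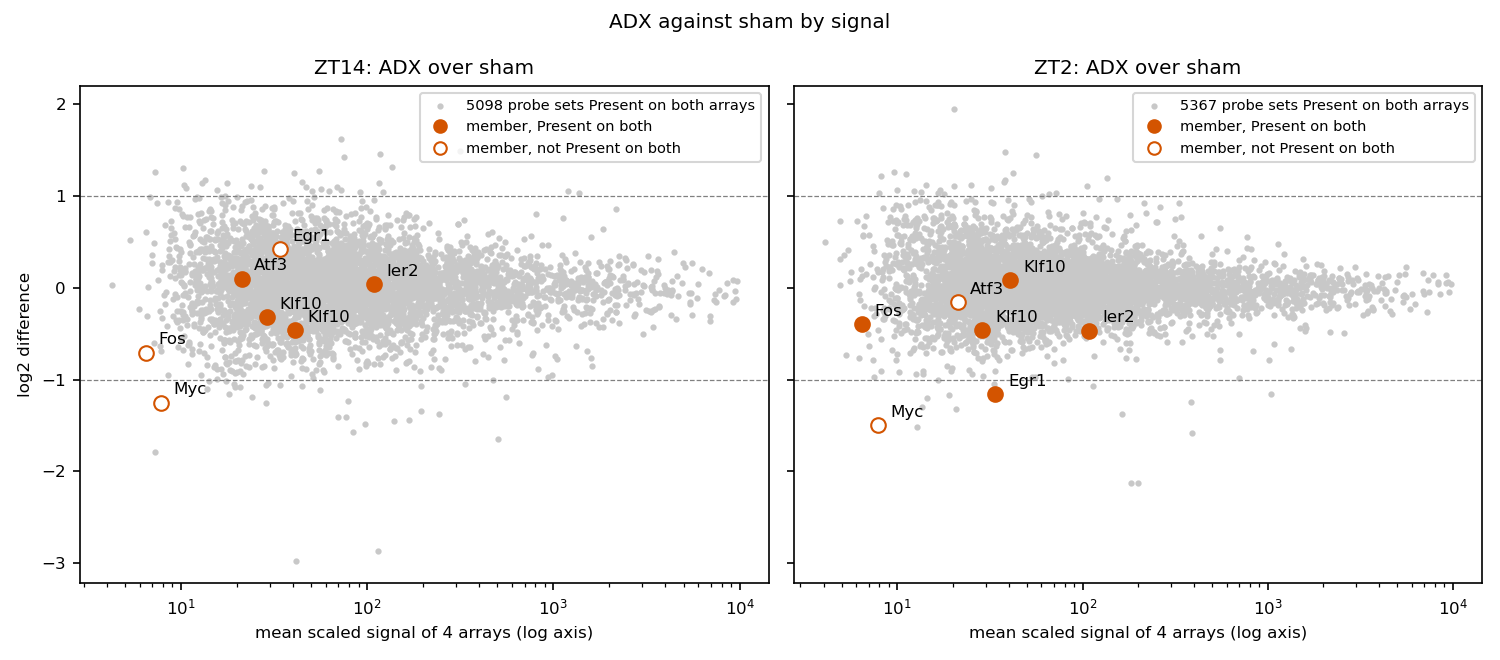
Log2 difference of ADX over sham at ZT14 (left) and ZT2 (right) against the mean scaled signal of the 4 arrays (log axis), with grey points for probe sets Present on both arrays, filled orange points for members Present on both and open ones for other members. Dashed lines mark 2-fold. Myc lies below the lower line at both times at a mean signal of 7.85, where the grey points spread widely, and Egr1 lies below it at ZT2 alone.

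The members without a Present call gave no usable comparison. Btg2 (101583_at) had signals as high as 54.1 in ADX at ZT14, with 18.6 in ADX at ZT2, against 51.9 in sham at ZT14 and 34.9 in sham at ZT2. It was nevertheless Absent on all of them, with detection p-values of 0.204 to 0.359, so the signal did not separate from the mismatch probes. Junb (102363_r_at) had 4.59 in ADX at ZT14 and 5.53 in ADX at ZT2, against 25.4 in sham at ZT14 and 12.3 in sham at ZT2. Both sham values exceed both ADX values, but every call was Absent, and the other Junb probe set (102362_i_at) stayed at 4.16 or lower. Jun (100130_at) had 12.0 in ADX at ZT14 and 10.2 in ADX at ZT2, against 1.86 in sham at ZT14 and 10.2 in sham at ZT2, with a Marginal call in the last. Ier3 (94384_at) had 10.9 in ADX at ZT14 (Marginal) and 10.7 in ADX at ZT2, against 10.9 in sham at ZT14 and 2.04 in sham at ZT2. For Jun and Ier3 the apparent difference rests on a single low, Absent array.

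RefSeq promoter sequences (GRCm38.p6, 250 bases before to 50 after the start) were at hand for 6 of the genes, Fos, Jun, Junb, Atf3, Ier3 and Btg2. Those of Fos and Atf3 are shown because these 2 measured genes had their higher signals at opposite times. Neither passed the size rule in either pair, so no contrast between the 2 promoters is drawn from this. The Fos window is chr12:85473640-85473939 on the plus strand, and the Atf3 window is chr1:191183284-191183583 on the minus strand. Capitals mark the letters TGACG, the core of the cyclic AMP response element, on either strand, and the TATA box letters TATAAA.
Fos: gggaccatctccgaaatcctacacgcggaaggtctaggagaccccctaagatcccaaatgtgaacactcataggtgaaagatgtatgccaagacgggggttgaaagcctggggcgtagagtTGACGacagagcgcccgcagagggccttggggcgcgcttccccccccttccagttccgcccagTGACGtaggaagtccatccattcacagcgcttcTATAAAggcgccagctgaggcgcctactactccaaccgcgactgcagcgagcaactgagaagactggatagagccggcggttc
Atf3: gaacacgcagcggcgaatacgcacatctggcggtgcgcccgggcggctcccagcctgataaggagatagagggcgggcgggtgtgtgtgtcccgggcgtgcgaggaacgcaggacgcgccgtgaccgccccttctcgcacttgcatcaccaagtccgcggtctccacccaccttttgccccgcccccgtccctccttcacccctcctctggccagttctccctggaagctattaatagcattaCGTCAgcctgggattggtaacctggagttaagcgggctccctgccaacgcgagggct

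In these windows the letters TGACG stood at -129 and -66 of the Fos start and, on the opposite strand, at -7 of the Atf3 start. They were found on either strand in 4 of the 6 member promoters (Fos, Atf3, Junb and Btg2) and in 20.8% of all 32851 promoters. The full element TGACGTCA, which contains them, was in the Btg2 promoter alone, and in 1.79% of all promoters. TATAAA was in the Fos and Junb windows and in 13.6% of all, and the EGR element GCGNGGGCG in that of Btg2 and in 5.55% of all. The CArG box of the serum response factor (1.63% of all promoters), the AP-1 element TGANTCA (7.81%) and the E-box CACGTG (7.15%) were in none of the 6 windows. These are matches of letters in a short window and say nothing about binding.

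A limma model with 1 term for time and 1 for operation was fitted over the 5872 probe sets Present on at least 2 arrays. Egr1 and Fos entered it through the ZT2 arrays alone and Myc through the sham arrays alone, the groups where each is high, so their effects of time (Egr1, Fos) and of operation (Myc) are not given. The ZT14 minus ZT2 effect was 1.31 (SE 0.20) for Klf10 (99602_at), 0.72 (SE 0.16) for its other probe set, 0.84 (SE 0.17) for Atf3 and -0.62 (SE 0.20) for Ier2, each with the same sign in both pairs. None of these passed the Benjamini-Hochberg adjusted threshold of 0.05 in limma, the lowest adjusted p being 0.226 for Klf10 (99602_at), then 0.277 for Atf3 and the other Klf10 probe set. The fit called 0.0341% of probe sets for time. The ADX minus sham effects of Ier2, Atf3 and Klf10 (99602_at) were -0.21, -0.03 and -0.19. For operation limma called 0% of probe sets, where 329 had an unadjusted p under 0.05. The fit has 1 residual degree of freedom, and that residual also holds any difference between the pairs. With a variance trend on signal, Klf10 (99602_at, adjusted p = 0.0331 in limma) passed for time, and Ier2, Atf3 and the other Klf10 probe set did not.

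Other genes of the early response behaved in mixed ways. Of 30 further early transcription factors listed, 25 were on the array and 15 were Present on either array of each pair. In the ADX pair 1 was higher and 1 lower at ZT14, and in the sham pair 2 were higher and 1 lower. The rule called 2.69% of all genes higher and 2.23% lower in the ADX pair, and 3.16% and 2.32% in the sham pair. Median log2 differences of the list were -0.01 and 0.26, against medians of 0.0045 and -0.0087 over all genes. Bhlhe40, a repressor that is also part of the clock, gave 209.5 units in ADX at ZT14 and 44.0 in ADX at ZT2, against 220.9 in sham at ZT14 and 34.8 in sham at ZT2. Nfil3, a leucine zipper repressor, was lower at ZT14 in both pairs (log2 -1.44 in ADX and -1.45 in sham), and Id1, an inhibitor of helix-loop-helix factors, was higher in sham alone (1.01 against -0.26 in ADX). None of the 15 was called between operations at either time. Egr2, Nr4a1, Klf2, Klf4, Maff and Fosl2 were not Present on any array, as was the case for Jun and Junb.

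Among early feedback and secreted genes, 31 of 38 listed were on the array. At ZT14 against ZT2, 0 of 22 Present were called in the ADX pair, while in the sham pair 2 of 21 were higher and 4 lower. Over all genes the rule called 2.69% higher and 2.23% lower in the ADX pair, and 3.16% and 2.32% in the sham pair. Dusp1, a phosphatase that switches off mitogen-activated protein kinases, gave 127 units in ADX at ZT14 and 80.2 in ADX at ZT2, against 166 in sham at ZT14 and 55.3 in sham at ZT2. Btg1, a relative of Btg2, had 40.6 in ADX at ZT14 and 55.5 in ADX at ZT2, against 24.3 in sham at ZT14 and 81.0 in sham at ZT2. In both genes the sham arrays lay outside the ADX arrays, so the sham difference was the wider one. Zfp36l1, which promotes decay of messenger RNAs, was lower at ZT14 in sham (log2 -1.01, against -0.32 in ADX). The other sham calls, Ccn1 and Spry4 (lower) and Ccn2 (higher), rest on signals of at most 20.5. Whether the pairs differ in this list was not tested. Between operations, Ccn1 and Spry4 were higher in ADX at ZT14 (log2 1.55 and 1.14, each against an Absent sham array), and Phlda1 was lower in ADX at ZT2 (73.2 against 190, log2 -1.38).

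Upstream of the members, 20 genes for kinases, small GTPases and transcription factors were on the array. Of the 13 to 15 Present on either array of a comparison, 0 were called in any of the 4. Over all genes the rule called between 0.77% and 3.16% in a given direction of a comparison, so that this count of 0 sets the list apart from nothing. Of 12 Present partners and corepressors, Ddit3, a stress-induced partner of Atf3, was higher at ZT14 in both pairs. It gave 58.4 against 28.2 (Marginal) at ZT2 in ADX, and 45.5 against 19.6 in sham. Nab2, a corepressor of Egr proteins, was lower at ZT14 in ADX (22.7, Absent, against 47.1). Max, the partner of Myc, was higher at ZT14 in sham (86.1 against 41.7). Of 14 Present genes known as Myc targets, 0 were lower in ADX at either time, where the rule called 1.39% of all genes lower at ZT14 and 0.77% at ZT2, so that a count of 0 sets the list apart from nothing. Eif4e, a translation factor, was higher in ADX at ZT14 (12.6 against 5.67 in sham, Absent). The list's median log2 difference in ADX was -0.08 at ZT14 and 0.16 at ZT2. In the sham pair Nop56, of ribosome assembly, and Srm, of spermidine synthesis, were higher at ZT14, at log2 1.18 and 1.0.

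The 7 hepatocyte markers on the array were Present on each array, with Alb at 9149 to 9736, and Apob was higher at ZT14 in the sham pair (1487 against 741). Of 7 glucocorticoid-responsive genes, Fkbp5, Lpin1 and Zbtb16 were lower in ADX than in sham at ZT14 (60.5 against 161, 44.3 against 324 and 14.5 against 114). Sgk1 (log2 0.32), Per1 (0.12) and Dusp1 (-0.38) were not called and Tsc22d3 was Absent throughout, and at ZT2 Lpin1 alone was called (lower, log2 -1.07). This list was chosen with earlier results of these data known and is no independent check of the operation. Between the times, 0 of 5 such genes Present were called in the ADX pair, and 4 of 6 were higher at ZT14 in the sham pair. Over all genes the rule called 2.69% higher and 2.23% lower in the ADX pair, and 3.16% higher in the sham pair. Leukocyte and Kupffer cell markers, 13 on the array, summed to 812 and 853 in ADX at ZT14 and ZT2, against 701 and 782 in sham, with 6 to 8 Present. Of these, Cd14 was lower at ZT14 in the ADX pair (17.4, Absent, against 37.7) and was not called in the sham pair (log2 0.18). The other 7 of the 8 Present in the ADX pair were not called, and the median log2 difference of the 8 was -0.13. The part of this list in the Egr1 result was not tested. Endothelial markers summed to between 127 and 133 on all arrays. Of 3 bile duct markers, 0 were Present. The 6 stellate cell and fibroblast markers summed to 181 and 138 in ADX at ZT14 and ZT2, against 117 and 113 in sham. These sums include signals without a Present call, as 2 and 4 were Present in ADX at ZT14 and ZT2 and 1 on each sham array. None was called in any comparison, where the rule called between 0.77% and 3.16% of all genes in a given direction. The part of these markers in the lower Myc signal of ADX was not tested. Of 3 red cell markers, Hba-a1 was 1789 in ADX at ZT14 and 1261 in ADX at ZT2, against 874 and 1552 in sham. Alas2 showed no such difference (170.9 and 207.5 in ADX at ZT14 and ZT2, against 178.3 and 202.5 in sham). Slc4a1 was Absent throughout. The ratio of 3' to 5' actin signal, a measure of RNA quality, was 1.73 and 1.89 in ADX at ZT14 and ZT2, against 1.71 and 1.69 in sham.

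Genes with the most similar pattern to Egr1 were sought among 143 probe sets Present on the same arrays, by the Euclidean distance of log2 signals centred over the 4 arrays. Nearest was Grk5, a kinase of G protein-coupled receptors (distance 0.50), then Ndrg1 (0.69) and Denn2b (0.81). Grk5 gave 10.3 units in ADX at ZT14 and 29.7 in ADX at ZT2, against 8.7 in sham at ZT14 and 42.2 in sham at ZT2. Ndrg1, a stress-responsive gene, had 22.3 in ADX at ZT14 and 38.0 in ADX at ZT2, against 15.9 in sham at ZT14 and 65.7 in sham at ZT2. Both followed the order of Egr1, with sham at ZT2 highest and ADX at ZT2 next, but they were picked for that likeness. Their order is therefore no separate support for the Egr1 pattern. The same rule applied to Junb and Jun, the next in range, gives patterns of Absent signals (Cep250, Igfbp6 and Dnase1l3, and Zfp787, Tpm2 and Dnase1), which are not described further.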

How the data were processed

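Per the file headers, the deposited value of each probe set is an Affymetrix Signal from an absolute (single-array) analysis, that is a linear intensity, beside a detection call. The deposited detection p-value was used through its call and printed where named. Which software and scaling target were used is not given in the sources used here. Values in the table of the whole series equal the per-array values (largest difference 0). Each array was multiplied by a factor (0.925 to 1.07) to a common trimmed mean (2% trimmed at each end), floored at 3.91 units (the median of the Absent signals, which exceeds the lowest Present one, 3.05) and put on the log2 scale. Left out were 66 control probe sets. All comparisons were computed over all 12422 remaining probe sets, and the additive fit ran in limma 3.58.1 (R 4.3.3; lmFit and eBayes) with Benjamini-Hochberg adjustment over all 5872 probe sets fitted. Within a time the arrays differ by operation, and their p-values cover no spread other than that among these 4 arrays. The number of arrays limits the precision. Other steps ran in Python 3.11.15 with pandas 2.3.3, and the steps were tested on simulated data.

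Groups and times came from the sample titles. Where a gene had several probe sets, the brightest stood for it in gene lists. Probe sets were named from the platform annotation, and none from an entry with several symbols. The text names every member probe set, list genes whose brightest probe set was called, and the 3 genes nearest in pattern to the members of widest range. Other list genes are named as examples chosen after their values were seen. The members and the gene lists were chosen with earlier results of these data known. Alternatives for scaling, floor, detection and fold were computed for the counts of calls and the member differences, and alternatives for scaling, floor, detection and model for the additive fit. The differences between pairs, gene lists, marker sums, joint patterns, ranks and nearest patterns have the main setting alone.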

Additional observations from a re-analysis of the deposited data

How the results depend on the processing

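All 7 calls of member probe sets were made with signals as deposited, with quantile normalization and with scaling to the median of probe sets Present on all arrays, and with a floor of 1 unit. The scaling did move the split of all calls. Higher and lower calls in the sham day-night pair numbered 211 and 156, against 173 and 198 unscaled and 161 and 193 after quantile normalization. In the ADX pair they numbered 177 and 150, against 148 and 201 after quantile normalization. For ADX over sham they were 147 and 97 at ZT14 (106 and 137 unscaled, 118 and 120 quantile) and 108 and 52 at ZT2 (69 and 90, 68 and 80). Counts below follow the order ADX pair, sham pair, ZT14, ZT2, where the main counts were 327, 367, 244 and 160 probe sets, with 2, 2, 1 and 2 members. Doubling the floor to 7.82 left 135 at ZT14 with 0 members (Myc lost) and 77 at ZT2 with 1. A floor of 23.9 left 120, 142, 46 and 20, with 1, 2, 0 and 1 members. Requiring both arrays Present left 144, 182, 62 and 40, with 1, 1, 0 and 1, since the Egr1 day-night calls and both Myc calls have an Absent array. No detection filter gave 1180, 1120, 1156 and 799, with 3, 6, 3 and 4. A 1.5-fold rule gave 1033, 1110, 864 and 646, with 5 members in each day-night pair.

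The additive fit called 2 probe sets for time, none a member. It called 0 with no detection filter (1414 at an unadjusted p under 0.05) or the floor of 23.9 (882), 1 over probe sets Present on all arrays or with the floor at 1 unit, 154 under a variance trend and 11 without the term for operation. For operation it called 0, and 1 with quantile normalization, a variance trend or no term for time. The time effect of Myc turned to -0.0177 with quantile normalization, and the operation effect of Atf3 to 0.0501 with the floor of 23.9. Neither passed in any setting. The cause of these changes was not tested. The term for operation makes the time effect a comparison within the 2 operations. Limits are the single array per group, which leaves no replicate check even for Ier2 and Klf10, and dim signal, as 9 of 16 member probe sets were never Present.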

Other observations

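The genes nearest in pattern to the other measured members, looked up after their values were seen, were all described by the same distance over 4 arrays. For Klf10 (99602_at) they were Rcan1, an inhibitor of calcineurin (distance 0.27), Igfbp3, a binding protein of insulin-like growth factors (0.28), and Nampt, an enzyme of NAD synthesis (0.29), among 4436 probe sets Present on all arrays. Rcan1 gave 147 units in ADX at ZT14 and 81.5 in ADX at ZT2, against 250 in sham at ZT14 and 67.0 in sham at ZT2. Nampt had 106 in ADX at ZT14 and 46.2 in ADX at ZT2, against 154 in sham at ZT14 and 39.3 in sham at ZT2. Each had its higher signals at ZT14 and its wider difference in sham, as this Klf10 probe set had. They were picked for likeness to it, so that match was set by the choice. The other Klf10 probe set (99603_g_at) had its wider difference in ADX (log2 0.79, against 0.65 in sham).

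For Ier2 they were Ablim1 (distance 0.11), Klf9, a Krüppel-like factor (0.11), and Plrg1 (0.12). Klf9 gave 37.5 units in ADX at ZT14 and 45.6 in ADX at ZT2, against 38.2 in sham at ZT14 and 67.8 in sham at ZT2. Its highest array was sham at ZT2, as for Ier2, which also follows from the choice by likeness. For Atf3 the nearest was Rgs3 (0.27), and for Fos it was Gdf10 (0.20). For Myc it was Mtcp1 (0.38), whose signals of 4.8 and 2.5 in ADX at ZT14 and ZT2, against 8.31 and 9.35 in sham, are as dim as those of Myc.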
